A study of Mus musculus with 14 samples.

Results

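The genes described are the 34 named members of glucose metabolism in the mouse ventricle, chosen by name: 2 glucose transporters, 3 genes of hexose phosphorylation and isomerisation, 3 phosphofructokinases, 4 enzymes that set the level of fructose 2,6-bisphosphate, 10 genes of lower glycolysis, 4 genes of lactate handling, 7 genes of glycogen and 1 gene of glycerol 3-phosphate. They carry 35 gene identifiers, because Aldoa has 2, and they stand among 22136 genes listed in both deposited tables and 26068 listed in either. PolyA-enriched RNA of ventricles was sequenced in 14 libraries that fall into 4 groups: 4 Rad KO TAC, 3 Rad KO sham, 4 WT TAC and 3 WT sham. TAC is transverse aortic constriction, an operation that narrows the aorta and loads the left ventricle with pressure, and sham is the operation without the narrowing. Rad KO stands for a knockout of Rad, a small GTPase encoded by Rrad that restrains the cardiac calcium channel. Tamoxifen was given 4 weeks after TAC, and ventricles were taken over 2 months from the operation, with the knockout over 1 month old. The sources used here do not give the strain, the age, the allele, the Cre driver or whether WT mice also received tamoxifen. The labels do not state that libraries of a group are separate animals, so a p-value speaks of the spread among these libraries.

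Glucose enters cardiomyocytes through facilitative transporters, is trapped as glucose 6-phosphate by hexokinase, and is either broken down to pyruvate and lactate by glycolysis or built through UDP-glucose into glycogen, a store that phosphorylase opens again. The adult heart draws most of its energy from fatty acids, and hearts under pressure load are known for a greater use of glucose. Most steps are run by isozymes, a muscle or heart form beside forms that are abundant in other tissues, and phosphofructokinase, activated by fructose 2,6-bisphosphate, is the main point of control.

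Total counts per library were 14546176 to 23314792. Rrad, the targeted gene, did not pass a test of Rad KO against WT (log2 fold change -0.14, SE 0.20, adjusted p = 0.93 in TAC, and -0.17, SE 0.23, adjusted p = 0.944 in sham). It had 164, 242.5, 198.6 and 119 counts per 1000000 (CPM) in Rad KO TAC, against 128, 223, 242 and 208 CPM in WT TAC, and 162, 182.5 and 228 CPM in Rad KO sham, against 213, 229 and 199.6 CPM in WT sham, with overlap in both pairs. A count over the whole gene does not show whether an exon was removed, so the label is used here as a label. Esr1, the estrogen receptor gene, split libraries within groups: it had 339 to 2463 CPM in all 4 Rad KO TAC, Rad KO sham 1 and 3, and WT sham 2 and 3, against 0.556 to 1.61 CPM in the other 6 libraries, which include all 4 WT TAC. TAC libraries and sham libraries of WT therefore differ in the Esr1 signal as well, and results are given below also among libraries alike in Esr1, that is, without Rad KO sham 2, WT sham 2 and WT sham 3. The 10 cardiomyocyte markers summed to 53833 to 71026 CPM, and the 10 skeletal muscle markers, of which Myh4, Tnnc2 and Myog are not in both tables, summed to 1.29 to 2.78 CPM, so that muscle isozymes were read here beside next to no skeletal muscle message.

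On the FPKM scale, which divides by the deposited gene length, muscle and heart forms led. Levels of different genes compare only as far as that length fits the transcripts present, which was not tested. Aldoa, the aldolase of muscle, averaged 885 FPKM over the 14 libraries, Ldhb, the heart form of lactate dehydrogenase, 784 FPKM, Pgam2, the muscle phosphoglycerate mutase, 513 FPKM, and Eno3, the muscle enolase, 503 FPKM. Their ranges overlap for neighbours in this order: Aldoa spanned 803 to 1148 FPKM, Ldhb 575 to 951 FPKM, Pgam2 423 to 597 FPKM and Eno3 368 to 672 FPKM. Pygm, the muscle glycogen phosphorylase, averaged 347 FPKM and Pfkm, the muscle phosphofructokinase, 274 FPKM. Slc2a4, which encodes the insulin-responsive transporter GLUT4, averaged 132 FPKM, while Slc2a1, which encodes GLUT1, averaged 5.95 FPKM. At the low end stood Slc16a3, the lactate exporter MCT4, at 0.75 FPKM, Pfkfb4 at 0.64 FPKM and Aldoc, the brain aldolase, at 0.06 FPKM. Aldoc had at most 0.487 CPM and was too low to test, so tests below cover 33 members.

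The first question is what pressure load did to these genes, taken over both labels as the mean of the 2 TAC effects. Of the 33 members tested, 5 rose (Ugp2, Pfkp, Pgam1, Gyg and Slc16a3) and 3 fell (Pfkfb1, Phkg1 and Ldhb) at an adjusted p under 0.05 (quasi-likelihood test of edgeR, Benjamini-Hochberg over all genes tested; the same method stands behind each gene's adjusted p unless DESeq2 is named). Over all 14731 genes tested, 6.36% rose and 4.75% fell. The median log2 fold change over the members was 0.07, beside 0.00 over all genes. An unadjusted p under 0.05 was found for 13 of the 33 members, beside 3875 of all 14731 genes. Summed over the members, the TAC and sham ranges met in each label: 12244 to 15632 CPM in Rad KO TAC, against 12943 to 13607 CPM in Rad KO sham, and 12453 to 13913 CPM in WT TAC, against 13671 to 13926 CPM in WT sham. Within a label, with fewer libraries, 1 member rose (Eno1) and 1 fell (Pfkfb1) in Rad KO, beside 1.05% and 0.644% of 14122 genes, and 3 rose (Pfkp, Ugp2 and Gpd1) and 1 fell (Phkg1) in WT, beside 2% and 1.08% of 14323 genes. Leaving out each of the 14 libraries in turn, 5 of the 8 calls of the mean effect were kept each time (Ugp2, Pfkp, Pgam1, Pfkfb1 and Phkg1), and the libraries that decide the other 3 are named with the gene. Among libraries alike in Esr1, which leaves 11 libraries, 0 members passed in the mean effect, where 0.727% of genes rose and 0.199% fell, with 9 members at an unadjusted p under 0.05 and the 8 members called with all libraries at adjusted p of 0.0682 to 0.284, with sizes such as 0.61 for Ugp2 and -1.49 for Pfkfb1, against 0.64 and -1.45 with all libraries. The heat map of all members by library and the plot of both TAC effects show that most members differed little between TAC and sham and that TAC libraries of 1 group were unequal, with WT TAC 2 and 3 and Rad KO TAC 2 often farthest from sham. In bulk tissue, fewer cells of a type and less RNA per cell cannot be told apart.

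**Figure D1:**
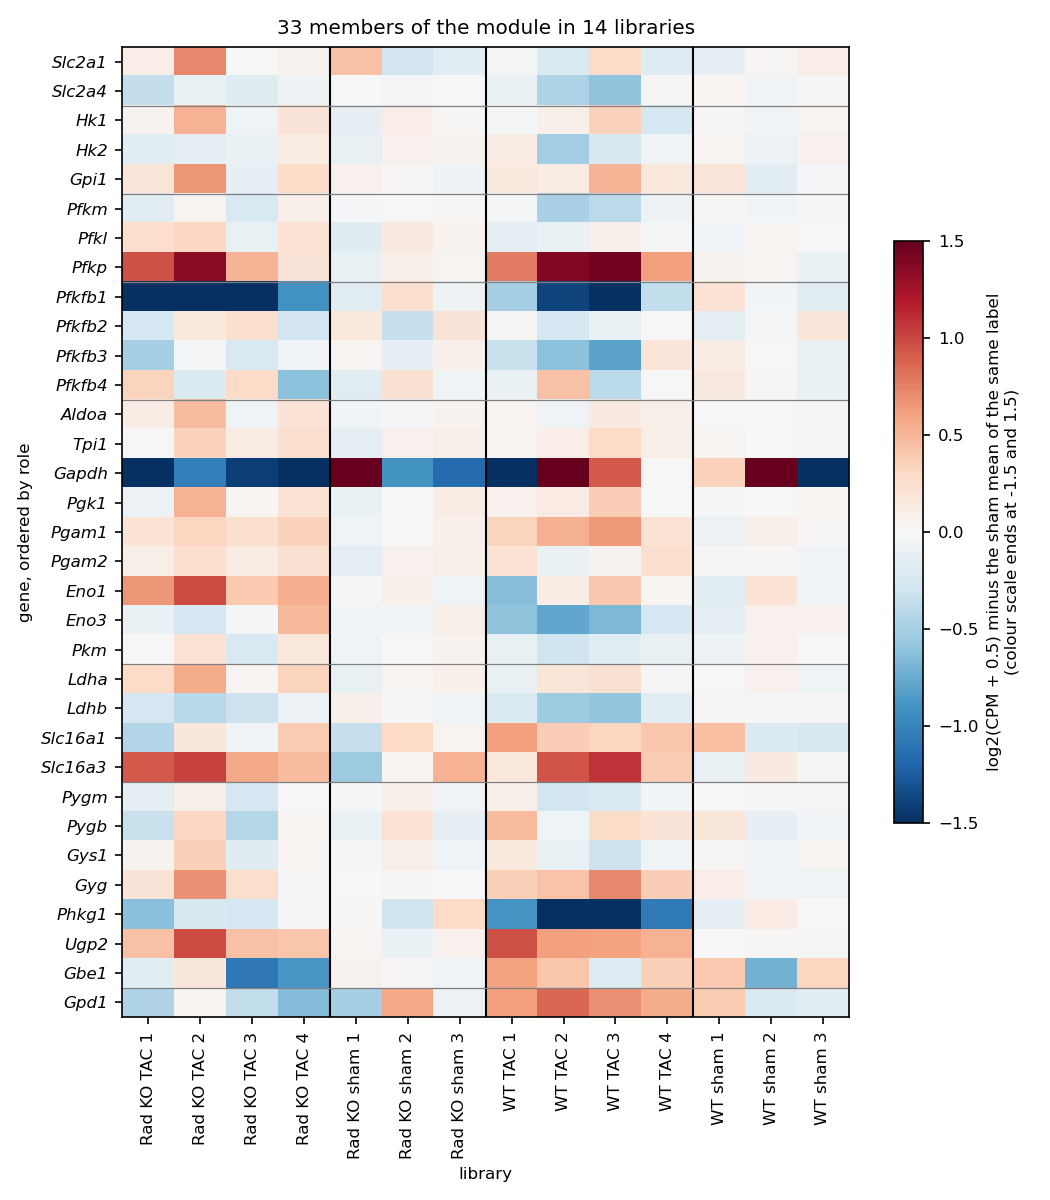
Each cell is log2(CPM + 0.5) of 1 of 33 members in 1 library minus the mean of the 3 sham libraries of the same label, with members ordered by role and the colour scale ending at -1.5 and 1.5. Pfkp and Ugp2 are red in all 8 TAC libraries, Pfkfb1 is blue in all 8, and Gapdh changes colour within groups.

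**Figure D2:**
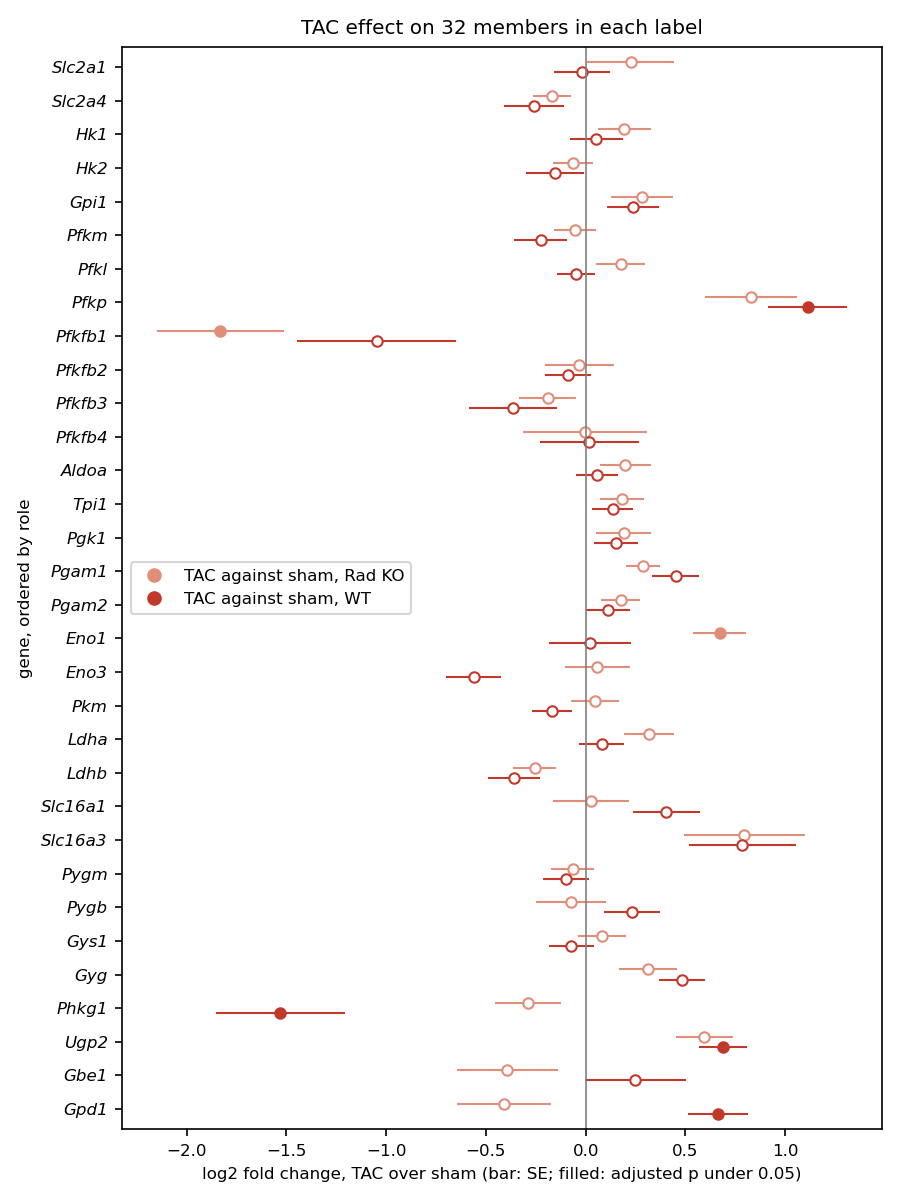
Points are log2 fold changes of TAC over sham for 32 members (all that were tested except Gapdh) in Rad KO (lighter) and WT (darker), with SE as bars, filled where the adjusted p is under 0.05. Most members lie near 0 in both labels, with Pfkp, Ugp2 and Slc16a3 to the right and Pfkfb1 and Phkg1 to the left.

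The start sites of the members that rose are shown because members that move together raise the question which letters their promoters share. Promoter windows of 300 bases, 250 before and 50 after the start, were read from RefSeq (build GRCm38.p6) for 32 of the 34 members (all but Slc2a4 and Gpd1) and searched on both strands for ACGTG, the core of the hypoxia response element, and for CACGTG, the E-box, which contains it. Of the 5 members that rose, 4 hold ACGTG, printed here 5′ to 3′ with matches in capitals; Gyg holds it within CACGTG.
Ugp2 (chr11:21371420-21371448, minus strand, match 169 bases before the start): aagcagagacagACGTGcttggcaccgtg
Pgam1 (chr19:41911745-41911773, plus strand, match 114 bases before the start): cgctccttgcttACGTGcgctccgtgact
Slc16a3 (chr11:120949034-120949063, plus strand, matches 27 and 14 bases before the start): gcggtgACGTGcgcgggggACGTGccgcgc
Gyg (chr3:20155091-20155120, minus strand, match at base 9 after the start): agcctgcgcggcCACGTGacggccgctata
The windows of Pfkp, which rose, and of Pfkfb1, Phkg1 and Ldhb, which fell, hold neither. Among all members with a window, 19 of 32 hold ACGTG and 6 hold CACGTG, while 21.8% and 8.09% of 27025 genes do, and members that rose and members that did not pass both hold it. A match is a description of the sequence only.

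Glucose uptake and the first steps did not pass a test in any comparison. Slc2a4 had 395, 469, 444 and 481 CPM in Rad KO TAC, against 509, 500.4 and 506 CPM in Rad KO sham, and 465, 362, 329 and 506 CPM in WT TAC, against 508, 486 and 503 CPM in WT sham. Every Rad KO TAC library was below every Rad KO sham library, while in WT TAC 4 lay within the sham range. The mean TAC effect on Slc2a4 was a log2 fold change of -0.22 (SE 0.09, adjusted p = 0.132). Slc2a1 had a mean effect of 0.10 (SE 0.14), Hk1, the hexokinase found in most tissues, 0.12 (SE 0.10), Hk2, the insulin-responsive hexokinase of muscle, -0.11 (SE 0.09), and Gpi1, glucose phosphate isomerase, 0.25 (SE 0.11). None of these 4 passed, with the smallest adjusted p at 0.147, for Gpi1.

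Among the 3 phosphofructokinases the platelet form rose and the muscle form, which makes up most of the message, did not pass. Pfkp (ENSMUSG00000021196, mm10 chromosome 13, 6579768 to 6648777, minus strand) showed 74.5, 98.5, 54.5 and 43.7 CPM in Rad KO TAC, against 35.3, 40.5 and 39.3 CPM in Rad KO sham. In WT it had 69.8, 106, 111 and 61.9 CPM in TAC, against 41.9, 41.7 and 37.6 CPM in sham. All 8 TAC libraries lay above all 6 sham libraries, as they did for Ugp2 and for no other member. Over all 14731 genes, 1.64% had all TAC above all sham and 1.11% all below, where no member stood. The mean effect on Pfkp was 0.97 (SE 0.17, adjusted p = 0.00271), a 1.95-fold change, with 0.83 (SE 0.23, adjusted p = 0.108) in Rad KO and 1.11 (SE 0.20, adjusted p = 0.0181) in WT. The WT call was lost without any 1 of the 3 WT sham libraries (1.07 to 1.14, adjusted p 0.0515 to 0.119), while the mean effect was 0.96 (adjusted p = 0.092) among libraries alike in Esr1. In Rad KO it passed without Rad KO TAC 4 (0.99, adjusted p = 0.0215) and with DESeq2 (0.82, adjusted p = 0.0134). Pfkm had a mean effect of -0.15 (SE 0.08, adjusted p = 0.296) and Pfkl, the liver form, 0.06 (SE 0.08, adjusted p = 0.673). Pfkp shares 748 bases with Pitrm1 on the opposite strand; the sources used here do not say whether counting used strand.

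The share of an isozyme in its family, computed on FPKM, was compared for 10 isozymes with an exact two-sided permutation test that exchanges TAC and sham within a label (1225 arrangements, smallest possible p 0.000816). Only 2 of them, Pfkp and Ldha, passed after Benjamini-Hochberg adjustment over the 10. Pfkp was 1.95%, 2.26%, 1.54% and 0.999% of phosphofructokinase FPKM in Rad KO TAC, against 0.880%, 0.972% and 0.940% in Rad KO sham, and 1.63%, 3.30%, 3.22% and 1.49% in WT TAC, against 0.957%, 0.987% and 0.859% in WT sham. Every TAC share exceeded every sham share, with WT TAC 2 and 3 at more than 3 times the sham level. The difference was 1.12 percentage points (exact permutation p = 0.00571, adjusted 0.0327). On FPKM Pfkp thus remained a small part of the family. On raw counts, which are not divided by gene length, the difference was larger, at 3.75 percentage points (exact permutation p = 0.0049, adjusted 0.0327). Pfkp had 35.3 to 111 CPM over all libraries, against 709 to 1011 CPM for Pfkm. The summed level of the family was 298 ± 31 FPKM in Rad KO TAC and 305 ± 7 FPKM in Rad KO sham, and 280 ± 40 FPKM in WT TAC and 320 ± 7 FPKM in WT sham (SD, n = 4 TAC and 3 sham).

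Of the 4 bifunctional enzymes that make and break down fructose 2,6-bisphosphate, Pfkfb1, known as the form of liver and skeletal muscle, fell. Pfkfb1 (ENSMUSG00000025271, mm10 chromosome X, 150588229 to 150643878, plus strand) showed 4.27, 3.85, 3.10 and 9.53 CPM in Rad KO TAC, against 16.3, 21.7 and 17.3 CPM in Rad KO sham, and 6.37, 3.22, 1.502 and 6.99 CPM in WT TAC, against 10.8, 8.90 and 8.09 CPM in WT sham. TAC lay below sham without overlap in each label, and Rad KO TAC 4 lay within the range of WT sham. The mean effect was -1.45 (SE 0.28, adjusted p = 0.00479), with -1.83 (SE 0.32, adjusted p = 0.0242) in Rad KO and -1.05 (SE 0.40, adjusted p = 0.206) in WT. The difference between these effects was -0.78 (SE 0.57, adjusted p = 0.979), so an effect particular to a label is not shown. The Rad KO call was lost without Rad KO TAC 1 or 3 or any 1 of the Rad KO sham libraries (-1.92 to -1.65, adjusted p 0.0518 to 0.117). Pfkfb1 overlaps Apex2 on the opposite strand over 1640 bases. Pfkfb2, the heart form, had a mean effect of -0.06 (SE 0.11), Pfkfb3, the form that strongly favours synthesis, -0.28 (SE 0.14) and Pfkfb4 0.00 (SE 0.20), with no adjusted p under 0.207.

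**Figure D3:**
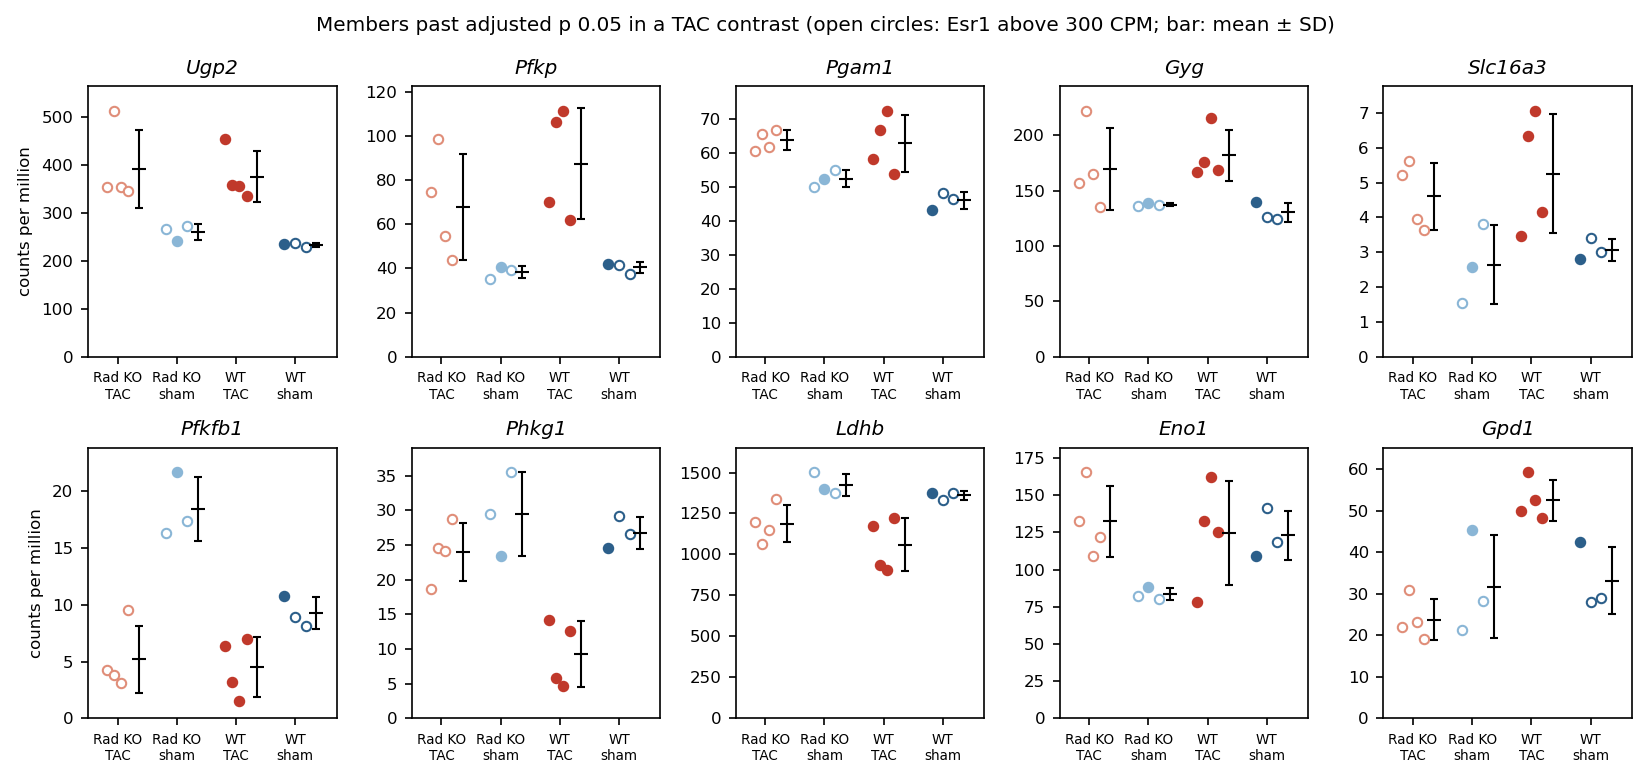
CPM of the 10 members past adjusted p 0.05 in a TAC contrast, 1 point per library, with mean ± SD beside each group (n = 4 TAC, 3 sham) and open circles for libraries with Esr1 above 300 CPM. Ugp2 and Pfkp are higher in all 8 TAC libraries, and for Gpd1 all filled points lie above all open ones.

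In lower glycolysis 1 of 9 members tested rose in the mean effect. Pgam1, the phosphoglycerate mutase of most tissues (ENSMUSG00000011752, mm10 chromosome 19, 41911871 to 41918664, plus strand), had 60.8, 65.7, 61.9 and 66.9 CPM in Rad KO TAC, against 50.1, 52.3 and 55.2 CPM in Rad KO sham, and 58.3, 66.9, 72.6 and 53.9 CPM in WT TAC, against 43.3, 48.4 and 46.7 CPM in WT sham. TAC lay above sham in each label, by a modest amount. The mean effect was 0.36 (SE 0.07, adjusted p = 0.00479), a 1.29-fold change. Pgam2, the muscle form and by FPKM the more abundant one, had 0.14 (SE 0.07, adjusted p = 0.223). Aldoa had a mean effect of 0.12 (SE 0.08), Tpi1, triosephosphate isomerase, 0.15 (SE 0.07), Pgk1, phosphoglycerate kinase, 0.17 (SE 0.09) and Pkm, pyruvate kinase, -0.07 (SE 0.08), none passing, with the smallest adjusted p at 0.199, for Tpi1.

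The 2 enolases are given with their values in both labels, since no test set the labels apart. Eno1, the enolase of most tissues (ENSMUSG00000063524, mm10 chromosome 4, 150236721 to 150248879, plus strand), had 133, 166, 109 and 122 CPM in Rad KO TAC, against 82.4, 88.2 and 80.0 CPM in Rad KO sham, and 78.2, 132, 162 and 125 CPM in WT TAC, against 109, 142 and 118 CPM in WT sham. The Rad KO groups did not overlap, while WT TAC spanned the whole range of WT sham and beyond it. Its effect was 0.67 (SE 0.13, adjusted p = 0.0364) in Rad KO and 0.02 (SE 0.21, adjusted p = 0.978) in WT. Eno1 has close copies at other places in the genome, and with the counts of Eno1b, Gm4735 and Gm5855 added, the effect was 0.35 (SE 0.14, adjusted p = 0.228) in Rad KO and 0.19 (SE 0.15, adjusted p = 0.579) in WT. The call was also lost without Rad KO TAC 1 or any 1 Rad KO sham library (0.64 to 0.70, adjusted p 0.0725 to 0.154), and in 1 model of 14 libraries (0.66, adjusted p = 0.0935). Eno3, the muscle enolase, had 774, 696, 824 and 1171 CPM in Rad KO TAC, against 811, 813 and 885 CPM in Rad KO sham, and 731, 648, 698 and 931 CPM in WT TAC, against 1013, 1162 and 1164 CPM in WT sham. WT TAC lay below WT sham without overlap, and Rad KO TAC 4 was as high as WT sham 3. The effect on Eno3 was 0.06 (SE 0.16, adjusted p = 0.898) in Rad KO and -0.56 (SE 0.14, adjusted p = 0.0587) in WT. The authors' deposited test passed it in WT (-0.56, adjusted p = 0.00228) and not in Rad KO (0.05, adjusted p = 0.936). The difference of the TAC effects was 0.65 (SE 0.27, adjusted p = 0.931) for Eno1 and 0.62 (SE 0.23, adjusted p = 0.877) for Eno3. With the copies of Eno1 added its difference was 0.16 (SE 0.21, adjusted p = 0.983).

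Gapdh, the dehydrogenase between Tpi1 and Pgk1 and often used as a reference gene, could not be read as a level in these tables. It had 2.83, 5.94, 4.44 and 4.11 CPM in Rad KO TAC, against 54.1, 6.59 and 5.43 CPM in Rad KO sham, and 3.15, 274, 174 and 91.3 CPM in WT TAC, against 117, 278 and 23.3 CPM in WT sham. The highest value was 98.3 times the lowest, WT TAC 1 stood far below the other 3 WT TAC libraries and WT sham 3 far below the other 2 WT sham libraries, while Tpi1 spanned 503 to 774 CPM and Pgk1 290.0 to 447 CPM. A search of the annotated transcripts (GENCODE M21) found 127 genes with a stretch of at least 200 bases at 95% identity or more to Gapdh, of which 87 are in both tables. With the counts of these added, Gapdh spanned 62.9 to 368 CPM. Its effects had wide errors: -2.33 (SE 0.70, adjusted p = 0.126) in Rad KO and -0.04 (SE 0.98, adjusted p = 0.991) in WT. With copies that lie elsewhere in the genome added, they were 0.26 (SE 0.22, adjusted p = 0.579) in Rad KO, the opposite direction, and 0.14 (SE 0.52, adjusted p = 0.923) in WT.

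**Figure D4:**
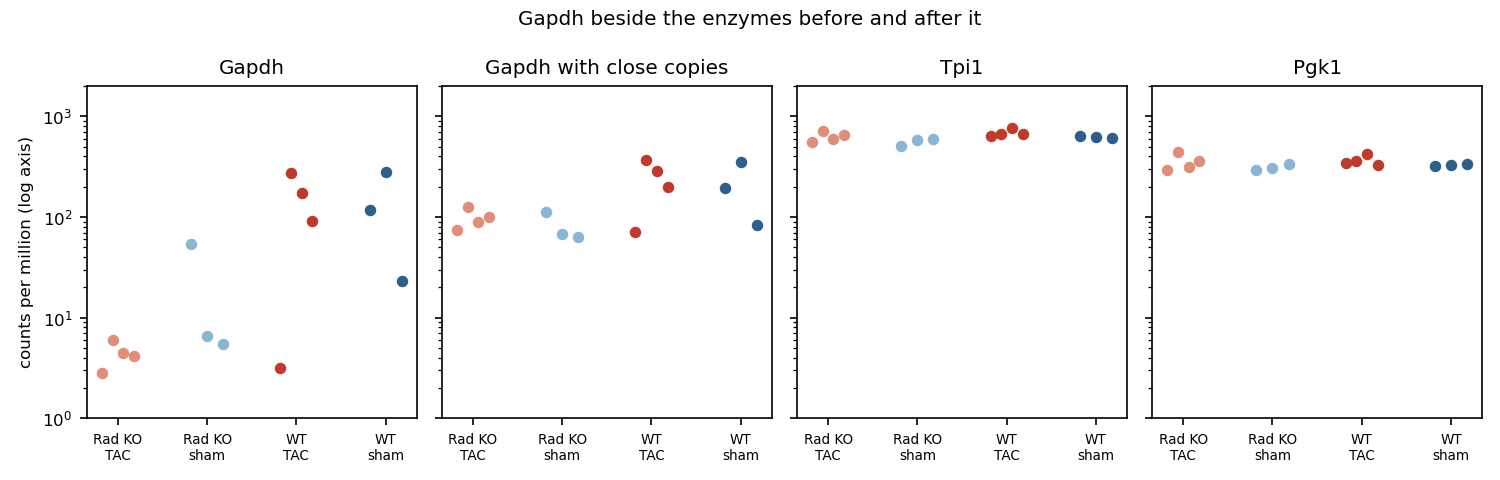
CPM on a log axis in each library by group for Gapdh as deposited, Gapdh with its close copies added, Tpi1 and Pgk1. Gapdh ranges from 2.83 to 278 CPM, while Tpi1 and Pgk1 lie in narrow bands between 290.0 and 774 CPM.

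In lactate handling 1 of 4 members rose and 1 fell in the mean effect, and the balance of the lactate dehydrogenases moved. Ldhb, whose subunit is typical of the heart (ENSMUSG00000030246, mm10 chromosome 6, 142490249 to 142507957, minus strand), showed 1199, 1064, 1152 and 1340 CPM in Rad KO TAC, against 1503, 1399 and 1376 CPM in Rad KO sham, and 1173, 939, 908 and 1221 CPM in WT TAC, against 1378, 1331 and 1377 CPM in WT sham. TAC lay below sham without overlap in each label. Its mean TAC effect was -0.31 (SE 0.08, adjusted p = 0.0236), and the call was lost without WT sham 3 (-0.31, adjusted p = 0.0609) or Rad KO sham 1 (-0.30, adjusted p = 0.0641). Ldha, whose subunit is typical of fast skeletal muscle, had 0.19 (SE 0.09, adjusted p = 0.157).

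Ldha made up 20.96%, 26.4%, 18.8% and 19.6% of lactate dehydrogenase FPKM in Rad KO TAC, against 13.8%, 16.0% and 16.6% in Rad KO sham, and 18.3%, 25.5%, 26.8% and 18.6% in WT TAC, against 17.0%, 18.2% and 16.4% in WT sham. Each TAC library stood above each sham library, by little in WT TAC 1 and 4 and by more in WT TAC 2 and 3 and Rad KO TAC 2. The difference was 5.52 percentage points (exact permutation p = 0.00653, adjusted 0.0327), with 5.97 in Rad KO (exact p = 0.0571) and 5.08 in WT (exact p = 0.143), where 4 against 3 libraries allow no p below 0.0286. Among libraries alike in Esr1 the differences were 5.76 points for Ldha and 1.12 points for Pfkp. The 75 arrangements there let no share pass on its own after adjustment over the 10 shares, so that test cannot decide. Without any 1 of the 3 WT sham, the 3 Rad KO sham or Rad KO TAC 1, 2 or 3, neither share passed (4.70 to 5.97 points for Ldha and 1.02 to 1.14 points for Pfkp, adjusted p 0.0643 to 0.114 for each). The summed level of Ldha and Ldhb was 957 ± 74 FPKM in Rad KO TAC and 1068 ± 31 FPKM in Rad KO sham, and 860 ± 84 FPKM in WT TAC and 1038 ± 13 FPKM in WT sham (SD, n = 4 TAC and 3 sham).

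The other 8 shares did not pass. Eno1 in enolase differed by 1.76 points (exact p = 0.0261, adjusted 0.0871), Pgam1 in phosphoglycerate mutase by 0.84 (exact p = 0.0531), Pfkl in phosphofructokinase by 0.89 (exact p = 0.0702), Slc16a3 among the 2 lactate transporters by 0.62 (exact p = 0.0824), Slc2a1 among the 2 glucose transporters by 0.99 (exact p = 0.136) and Hk1 among the 2 hexokinases by 3.48 (exact p = 0.159). On raw counts Eno1 differed by 4.52 points (exact permutation p = 0.0245, adjusted 0.0816). The share of Eno1 leaves out its close copies and was not computed with them added. Aldoc stayed under 0.02% of aldolase (exact p = 0.564). Pygb, the brain form of glycogen phosphorylase, was 32.9%, 39.6%, 33.1% and 36.6% of phosphorylase FPKM in Rad KO TAC, against 34.9%, 38.3% and 34.6% in Rad KO sham, and 41.2%, 38.3%, 43.0% and 38.7% in WT TAC, against 37.6%, 33.3% and 33.9% in WT sham. The WT groups did not overlap (5.35 points, exact permutation p = 0.0286, the smallest these groups allow), the Rad KO groups did (-0.38 points, exact p = 0.857), and over both labels the difference was 2.48 points (exact p = 0.141, adjusted 0.177).

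**Figure D5:**
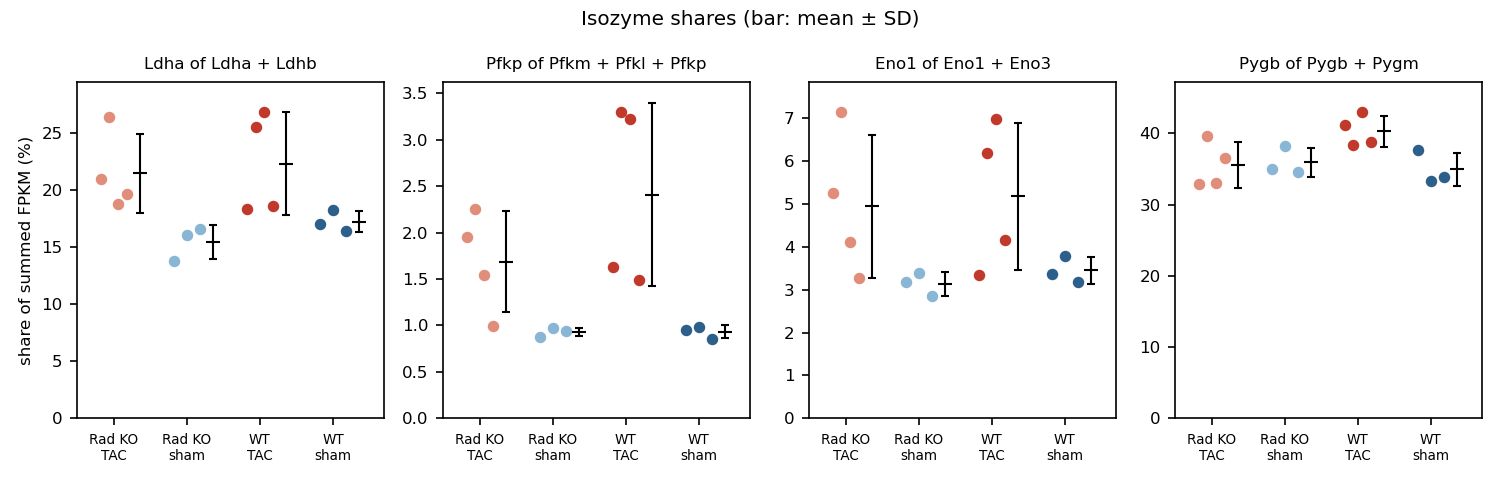
Share of summed FPKM in percent, 1 point per library, with mean ± SD beside each group (n = 4 TAC, 3 sham), for Ldha, Pfkp, Eno1 and Pygb within their families. For Ldha and Pfkp every TAC point is above every sham point, for Eno1 and Pygb the TAC and sham points overlap. Eno1 is shown without its close copies.

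Slc16a3 encodes MCT4, a lactate exporter of glycolytic cells (ENSMUSG00000025161, mm10 chromosome 11, 120948480 to 120960868, plus strand). It had 5.22, 5.61, 3.95 and 3.63 CPM in Rad KO TAC, against 1.56, 2.57 and 3.82 CPM in Rad KO sham, and 3.48, 6.33, 7.07 and 4.15 CPM in WT TAC, against 2.80, 3.40 and 3.01 CPM in WT sham. TAC lay above sham in WT, and Rad KO TAC 4 lay below Rad KO sham 3. Its mean TAC effect was 0.79 (SE 0.21, adjusted p = 0.0263), a 1.72-fold change of a low level. It was lost without WT TAC 2 or 3, WT sham 1 or 3, or Rad KO sham 1 or 2 (0.65 to 0.78, adjusted p 0.0512 to 0.0679). Slc16a1, which encodes MCT1, the main lactate transporter of the heart, had 0.21 (SE 0.14, adjusted p = 0.366).

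Among the 7 glycogen genes 2 rose and 1 fell in the mean effect. Ugp2 makes UDP-glucose, the sugar donor for glycogen (ENSMUSG00000001891, mm10 chromosome 11, 21321138 to 21371201, minus strand). It had 354, 514, 353 and 346 CPM in Rad KO TAC, against 267, 242 and 273 CPM in Rad KO sham, and 454, 359, 356 and 335 CPM in WT TAC, against 235, 237 and 230 CPM in WT sham. The lowest TAC library stood clearly above the highest sham library, and 1 library of each TAC group, Rad KO TAC 2 and WT TAC 1, exceeded the rest. The mean effect was 0.64 (SE 0.10, adjusted p = 0.0012), a 1.56-fold change, with 0.59 (SE 0.14, adjusted p = 0.0719) in Rad KO and 0.69 (SE 0.12, adjusted p = 0.0172) in WT. The effect in Rad KO passed without Rad KO TAC 2 (0.43, adjusted p = 0.0429) or Rad KO TAC 4 (0.65, adjusted p = 0.0449) and with DESeq2 (0.59, adjusted p = 0.00579). The WT call was lost without any 1 of the WT sham libraries (0.68 to 0.70, adjusted p 0.0527 to 0.119), and among libraries alike in Esr1 the mean effect was 0.61 (adjusted p = 0.0682).

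Gyg encodes glycogenin, the protein on which a glycogen particle starts (ENSMUSG00000019528, mm10 chromosome 3, 20122084 to 20155317, minus strand). It had 157, 222, 165 and 135 CPM in Rad KO TAC, against 137, 139 and 137 CPM in Rad KO sham, and 167, 176, 216 and 169 CPM in WT TAC, against 140.1, 127 and 125 CPM in WT sham. TAC was above sham in WT without overlap, and in Rad KO the lowest library was Rad KO TAC 4. The mean effect was 0.39 (SE 0.10, adjusted p = 0.0182) and was lost without WT sham 3 (0.37, adjusted p = 0.0538). Gys1, the muscle glycogen synthase, had a mean effect of 0.00 (SE 0.09) and Gbe1, the branching enzyme, -0.08 (SE 0.20). Of the phosphorylases that break glycogen down, Pygm had -0.09 (SE 0.08) and Pygb 0.07 (SE 0.12). The adjusted p of these 4 was 0.505 or more.

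Phkg1 encodes the catalytic subunit of muscle phosphorylase kinase, which switches phosphorylase on (ENSMUSG00000025537, mm10 chromosome 5, 129863421 to 129898549, minus strand). It had 18.6, 24.5, 24.1 and 28.7 CPM in Rad KO TAC, against 29.4, 23.5 and 35.5 CPM in Rad KO sham, and 14.2, 5.84, 4.62 and 12.5 CPM in WT TAC, against 24.5, 29.2 and 26.5 CPM in WT sham. WT TAC stood below every other library, with WT TAC 2 and 3 lowest, while the 2 Rad KO groups overlapped. On average over the labels TAC changed it by -0.92 (SE 0.20, adjusted p = 0.00903), with -0.29 (SE 0.17, adjusted p = 0.406) in Rad KO and -1.53 (SE 0.32, adjusted p = 0.0344) in WT. The WT call was lost without WT TAC 2 or any 1 WT sham library (-1.59 to -1.36, adjusted p 0.071 to 0.143). The difference of the effects was 1.24 (SE 0.40, adjusted p = 0.769). The annotated span of Phkg1 overlaps Chchd2 on the same strand over 6315 bases, and Sumf2 and Zbed5 on the opposite strand, so reads of these genes cannot be told apart with certainty.

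Gpd1, the cytosolic glycerol 3-phosphate dehydrogenase, draws dihydroxyacetone phosphate out of glycolysis (ENSMUSG00000023019, mm10 chromosome 15, 99717515 to 99725005, plus strand). It had 22.0, 30.8, 23.3 and 19.1 CPM in Rad KO TAC, against 21.2, 45.4 and 28.4 CPM in Rad KO sham, and 50.1, 59.4, 52.5 and 48.3 CPM in WT TAC, against 42.5, 28.1 and 29.0 CPM in WT sham. WT TAC was the highest group, and the 2 sham libraries nearest to it, Rad KO sham 2 and WT sham 1, are the 2 sham libraries without the Esr1 signal. The 8 libraries with Esr1 above 300 CPM had 19.1 to 30.8 CPM of Gpd1, against 42.5 to 59.4 CPM in the other 6, without overlap. Of the members tested only Gpd1 separated in this way, as did 0.543% of all genes tested. This reading was made after the values were seen and carries no test. The effect of TAC was -0.41 (SE 0.24, adjusted p = 0.413) in Rad KO and 0.66 (SE 0.15, adjusted p = 0.0443) in WT. Against WT sham 1 alone, which shares the low Esr1 of WT TAC and is assumed to vary like the other libraries, the WT effect was 0.31 (adjusted p = 0.921), and without Rad KO sham 2 the Rad KO effect was -0.07 (adjusted p = 0.923). The WT call was also lost without any 1 WT TAC library, WT sham 2 or WT sham 3 (0.55 to 0.70, adjusted p 0.0507 to 0.222) and in 1 model of 14 libraries (0.66, adjusted p = 0.11). Gpd1 lies opposite the antisense gene Gm16537. Gpd1 is also an adipocyte gene, and 8 adipocyte markers summed to 153 to 210 CPM in Rad KO TAC, against 194 to 282 CPM in Rad KO sham, and to 131 to 241 CPM in WT TAC, against 153 to 187 CPM in WT sham. Nearly all of that sum was Plin4, a lipid droplet protein that muscle also makes, while Adipoq and Plin1 had at most 0.617 and 0.791 CPM in any library. The part of fat cells in the values of Gpd1 was not tested.

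Whether the label changed the response to TAC was asked with the difference of the TAC effects. No member passed in edgeR, beside 0% of all genes, with the smallest adjusted p at 0.672, for Gpd1 (-1.08, SE 0.31). DESeq2 also called 0 members. An unadjusted p under 0.05 in edgeR was found for 4 members, beside 754 of all 14731 genes. In simulated counts 51% of 2-fold changes were recovered in this contrast, so 0 calls do not show equal responses. Between the labels among sham libraries 0 members passed in edgeR, again beside 0% of genes, with the smallest adjusted p at 0.81. DESeq2 called 0 members here too. In edgeR 4 members had an unadjusted p under 0.05, beside 847 of all 14731 genes. In this contrast Pfkfb1 was 0.99 (SE 0.42, adjusted p = 0.828), with 16.3 to 21.7 CPM in Rad KO sham and 8.09 to 10.8 CPM in WT sham, and Eno1 -0.56 (SE 0.20, adjusted p = 0.81). With its copies added, Eno1 was -0.14 (SE 0.16, adjusted p = 0.928).

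Between the labels among TAC libraries 0 members passed, beside 0.0136% of genes. Those nearest the threshold were Gpd1 at -1.14 (SE 0.20, adjusted p = 0.0763), Phkg1 at 1.38 (SE 0.27, adjusted p = 0.0953) and Gapdh at -4.97 (SE 1.09, adjusted p = 0.123). DESeq2 called these 3. With its copies added, Gapdh was -1.25 (adjusted p = 0.422). In edgeR 4 members had an unadjusted p under 0.05, beside 1143 of all 14731 genes. All Rad KO TAC libraries carry the Esr1 signal and no WT TAC library does, so the label and the Esr1 signal cannot be told apart in this contrast. For Phkg1 no Rad KO TAC library came down to the highest WT TAC library. The remaining members had adjusted p of 0.465 or more.

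Other genes of the pathway were taken from lists chosen by function. Counts of calls in these lists, and in the cell markers below, are for the mean effect, where 6.36% of all genes rose and 4.75% fell. Among further isozymes of glucose uptake and lactate transport, Slc16a7, the monocarboxylate transporter MCT2, fell in the mean effect (-1.40, adjusted p = 0.0202), as did Slc2a12, the transporter GLUT12 (-0.63, adjusted p = 0.0351).

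Of 19 further glycogen enzymes and regulators, 2 rose and 3 fell, with a median of 0.00. Ppp1r3c, a subunit that brings protein phosphatase 1 to glycogen, averaged 153 ± 21 CPM in Rad KO TAC and 109 ± 7 CPM in Rad KO sham, and 185 ± 52 CPM in WT TAC and 108 ± 7 CPM in WT sham (SD, n = 4 TAC and 3 sham), a mean effect of 0.63 (adjusted p = 0.00586). Phka1, the regulatory alpha subunit of muscle phosphorylase kinase, rose by 0.33 (adjusted p = 0.0127), while Phka2, the liver alpha subunit, fell by 0.47 (adjusted p = 0.0128). Phkb, the beta subunit, had a mean effect of 0.00 (adjusted p = 0.999), and Phka1 passed in neither label alone (0.26, adjusted p = 0.191 in Rad KO, and 0.40, adjusted p = 0.102 in WT). Ppp1r3d (-0.42, adjusted p = 0.0407) and Pgm2l1, a glucose 1,6-bisphosphate synthase (-0.48, adjusted p = 0.0494), fell as well.

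Around the pathway, Pdp2, a phosphatase that activates pyruvate dehydrogenase, fell (-0.77, adjusted p = 0.00457), 1 of 13 genes of pyruvate entry into mitochondria. Of the 2 genes of the glycerol phosphate shuttle, Gpd2, the mitochondrial partner of Gpd1, fell (-0.36, adjusted p = 0.0266). Of 16 genes of the pentose phosphate, hexosamine and polyol branches 0 rose and 3 fell: Ogt, which adds GlcNAc to proteins (-0.32, adjusted p = 0.00773), Khk, ketohexokinase (-0.41, adjusted p = 0.0299), and H6pd (-0.21, adjusted p = 0.0371). Of 15 genes of insulin signalling to glucose uptake, Irs2, an insulin receptor substrate, rose (0.65, adjusted p = 0.0337), while Tbc1d4, which holds GLUT4 vesicles back (-0.51, adjusted p = 0.00305), and Pik3r1, a regulatory subunit of PI3 kinase (-0.50, adjusted p = 0.0161), fell. Of 12 hypoxia factors and targets, Ddit4 (1.07, adjusted p = 0.00351) and Bnip3 (0.56, adjusted p = 0.0217) rose and 0 fell, with a list median of 0.05.

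Markers of other cells moved with TAC in part. Of 10 fibroblast markers 4 rose in the mean effect (Mfap5, Pdgfrl, Col1a1 and Col1a2) and 0 fell. Their sum was 2202 to 4577 CPM in Rad KO TAC, against 2407 to 2836 CPM in Rad KO sham, and 2419 to 3722 CPM in WT TAC, against 2230 to 3103 CPM in WT sham. The 10 endothelial and 10 macrophage markers gave 0 calls, with endothelial sums of 937 to 1406 CPM in Rad KO TAC, against 1338 to 1435 CPM in Rad KO sham, and 1176 to 1302 CPM in WT TAC, against 1210 to 1281 CPM in WT sham. Macrophage sums were 185 to 413 CPM in Rad KO TAC, against 247 to 277 CPM in Rad KO sham, and 248 to 403 CPM in WT TAC, against 290 to 371 CPM in WT sham. Of 8 smooth muscle markers Des rose and Acta2 fell, with sums of 2180 to 4192 CPM in Rad KO TAC, against 2270 to 2826 CPM in Rad KO sham, and 2839 to 3674 CPM in WT TAC, against 2084 to 2421 CPM in WT sham. In WT these smooth muscle sums did not overlap, but the sum does not stand for the markers as a set. Their median log2 fold change was -0.53 in Rad KO, -0.18 in WT and -0.30 in the mean effect. Of 8 erythrocyte markers 0 of 6 tested were called, with sums of 479 to 2023 CPM in Rad KO TAC, against 751 to 993 CPM in Rad KO sham, and 774 to 1660 CPM in WT TAC, against 683 to 1344 CPM in WT sham. Of 10 cardiomyocyte markers 2 rose (Actc1 and Mybpc3) and Ryr2 fell. The part of these cells in the changes of Pfkp, Pgam1, Slc16a3 and the other members was not tested.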

How the data were processed

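PolyA-enriched RNA of mouse ventricles was measured in 14 libraries, grouped and numbered per the labels. The authors deposited, per the file headers, a raw count per gene and library, an FPKM value, and a log2 fold change of TAC over sham with its p-value and adjusted p-value, in 1 table per genotype label (24279 genes for WT, 23925 for Rad KO). Deposited FPKM values were checked to be counts divided by gene length and by 1 number per library. HISAT2, DESeq2, edgeR and mm10 stand in the submitters' processing notes; the sources used here do not give their roles, the counter, its strand setting or the annotation.

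Here the deposited counts were tested with edgeR 4.0.16 in R 4.3.3 (TMM, filterByExpr with a minimum count of 10 and total of 15, quasi-likelihood F-test, Benjamini-Hochberg over all genes tested, threshold 0.05). TAC effects within a label used its 7 libraries. A model of all 14 libraries gave the mean TAC effect, the difference of both TAC effects and the contrasts of labels. The SE is the log2 fold change over the square root of F. CPM is per 1000000 with TMM scaling. Shares were computed on the deposited FPKM and tested by exact permutation in Python 3.11.15 with scipy 1.17.1. Close copies were found with blastn 2.17.0. Alternatives were DESeq2 1.42.0, edgeR with DESeq2 size factors, all genes without a low-count filter, a replicate block, 1 model for all, other thresholds, raw-count shares, log2 ratios, each library left out, and libraries alike in Esr1; summing close copies was added after seeing the data.

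Members and lists were chosen with earlier results of these data known. Named in full are members past the threshold in a contrast or among the 4 smallest p of a TAC contrast. Slc2a4, Eno3 and Gapdh were given in full after their values were seen. The scripts were tested on simulated counts. The authors' deposited tests give an adjusted p under 0.05 to 4 members in Rad KO (Eno1, Pfkfb1, Pfkp and Ugp2). In WT they do so for 7 (Eno3, Gpd1, Gyg, Pfkp, Pgam1, Phkg1 and Ugp2). No per-sample column was left without a sample. Results for some genes of the list of further isozymes are not reported here.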

Additional observations from a re-analysis of the deposited data

Results flagged for a closer look

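In groups of 4 libraries, 86 sets of values of the members and shares were checked for a library far from the other 3, with Dixon's test at 95%. In all, 3 were found. Chance gives about 1 in 20 groups, so 3 of 86 is no more than chance gives. Ugp2 had 513.8 CPM in Rad KO TAC 2, against 346 to 354 CPM in the other 3 Rad KO TAC libraries. Slc2a1 had 30.95 CPM in Rad KO TAC 2, against 18.7 to 19.9 CPM in the other 3. Gpi1 had 436.7 CPM in WT TAC 3, against 331 to 342 CPM in the other 3 WT TAC libraries. Without Rad KO TAC 2 the TAC effect on Ugp2 in Rad KO was 0.43 (edgeR adjusted p = 0.0429), against 0.59 (adjusted p = 0.0719) with it.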

How the results depend on the processing

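No member or share called by edgeR or the exact test changed direction under any alternative run. Gapdh, which edgeR did not call and DESeq2 called for Rad KO against WT in TAC, turned positive with its copies added: 0.26 in Rad KO, 0.14 in WT and 0.20 in the mean effect. Among libraries alike in Esr1, 5 higher and 4 lower of all 14410 genes passed in Rad KO, and in WT sham only WT sham 1 was left. Member counts in that setting are therefore no result about the members. The number of members past the threshold in Rad KO (2) was 4 with DESeq2, 5 with no filter on low counts, 0 among libraries alike in Esr1 and 0 at an adjusted p under 0.01. In WT (4) it was 7 with DESeq2, 7 with no filter, 0 at an adjusted p under 0.01 and 7 under 0.1. For the mean TAC effect (8) it was 0 among libraries alike in Esr1 and 5 at an adjusted p under 0.01. For Rad KO against WT in TAC (0) it was 3 with DESeq2, 2 with no filter and 2 at an adjusted p under 0.1. Counts over all genes grew as well: DESeq2 called 445 higher and 308 lower in Rad KO, 588 and 345 in WT, and 61 and 35 for Rad KO against WT in TAC, and no filter gave 367 and 204, 495 and 287, and 16 and 5, so the larger member counts are no result about the members. Counts over all genes at an adjusted p under 0.01 or 0.1 are not given here. Member counts at those thresholds are therefore no result about the members. Leaving out 1 library at a time gave 0 to 4 in Rad KO, 0 to 5 in WT, 5 to 10 for the mean effect, 0 to 2 for Rad KO against WT in TAC, and 0 to 4 isozyme shares, where 2 passed with all. Calls over all genes fell too, from 148 higher and 91 lower in Rad KO to 5 and 4 without Rad KO sham 2. Without WT sham 3 they fell from 287 and 155 to 13 and 2 in WT, and from 937 and 700 to 586 and 386 for the mean effect. Smaller member counts in these runs are therefore no result about the members. The 2 shares passed on raw counts and as log2 ratios. Among libraries alike in Esr1, 75 arrangements let no share pass on its own after adjustment over the 10 shares, so that setting cannot decide. With the replicate number as a block, more genes passed in Rad KO (299 higher, 132 lower) and in WT (381 and 159). For the mean effect 1044 and 853 did, so the larger member counts under the block are no result about the members. The replicate block gave 3 members in Rad KO, 6 in WT, 11 for the mean effect and 0 isozyme shares. For shares its 64 sign flips allow no exact p below 0.03125, which Pfkp, Ldha and 3 others reached (adjusted p = 0.0625), so that 0 says nothing about them. Same-numbered TAC and sham libraries correlated at -0.03 to 0.14, and differently numbered ones of the same label at -0.14 to 0.08. These values do not settle whether the numbers pair the samples. With the block, the call of Gpd1 in WT was lost (0.72, edgeR adjusted p = 0.0562). Apart from the exceptions named beside each gene, calls were lost where libraries were left out, which leaves fewer samples; among the effects of single members that edgeR called, a size moved by over 1.5 times only for Gpd1 in WT among libraries alike in Esr1 and for Eno1 in Rad KO with close copies added. Depth limits Slc16a3, Pfkfb1, Pfkfb4 and Aldoc, which had the fewest counts.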
